A study of Homo sapiens with 6 samples.

Results

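The genes described here were 9 genes of plasminogen activation and of matrix proteolysis at the cell surface, chosen as a list of symbols with earlier results of these data known, out of 19871 gene symbols in the deposited tables. They were the plasminogen activators PLAU and PLAT, the urokinase receptor PLAUR, the protease inhibitor SERPINE2, the membrane-type matrix metalloproteinases MMP14 and MMP15, and the tissue inhibitors of metalloproteinases TIMP1, TIMP2 and TIMP3. RNA of HCT116, a human colorectal cancer cell line, was sequenced in 3 groups of 2 libraries each, 6 in all. The groups were a negative control (NC), cells transfected with GAS5, a long noncoding RNA that the study describes as binding the transcriptional coactivator YAP, and cells given siRNA against YAP (siYAP). The labels list NC, GAS5 and siYAP alike under siRNA and describe the GAS5 agent as a plasmid. What the NC cells received, which YAP siRNA was used and how long after transfection RNA was taken for sequencing are not given in the sources used here. Every group came from the same cell line, and nothing states that the libraries of a group came from separate cultures.

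Plasminogen is a circulating zymogen that urokinase (PLAU) and tissue plasminogen activator (PLAT) cut to plasmin, a serine protease that degrades fibrin and several matrix proteins. PLAUR holds urokinase at the cell surface, and serpins such as SERPINE2 trap the activators. MMP14 and MMP15 are zinc proteases anchored in the plasma membrane, MMP14 activates pro-MMP2 there with TIMP2 as a bridge, and the TIMP proteins block the active site of metalloproteinases. In colorectal carcinoma this system is best known from the invasive front, where tumour and stromal cells both contribute to it.

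Each table held 1 value per transcript and group, the authors' mean over the libraries of that group, so no spread between libraries could be computed and no test of a difference was run. Throughout, a count is the authors' mean estimated count summed over the transcripts of a gene, a level compared between genes is FPKM (fragments per kilobase of transcript, scaled to library size) summed in the same way, and a fold change is on the log2 scale after TMM scaling of the pair of groups with a prior count of 2. Intervals are 95% Wilson intervals of counting error only, taken on the group mean as if it were a single count, and they say nothing about the spread between cultures. In place of a test, a change of at least 1.5-fold (log2 0.58) was taken as a call. The depth was 27206123, 25521577 and 26298036 counts for NC, GAS5 and siYAP, and the median log2 fold change over all measured genes was -0.01 in GAS5 and 0.03 in siYAP.

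The targeted gene YAP1 stood at 3480.0 mean counts in NC against 1444 in siYAP, a log2 fold change of -1.15 (interval -1.24 to -1.07). In GAS5 it had 2679 mean counts, or 2889 after scaling, a log2 fold change of -0.27 (interval -0.34 to -0.20). Of 10 YAP target genes 9 were measured in siYAP, of which AXL (log2 0.62) and FJX1 (log2 0.63) were at least 1.5-fold higher and none was 1.5-fold lower, with 8 of the 9 above 0. CTGF had a log2 fold change of 0.19 and CYR61 of 0.32 there, against 0.71 and 1.08 in GAS5. All 10 were measured in GAS5, where CTGF, CYR61 and ANKRD1 were at least 1.5-fold higher and none was 1.5-fold lower. ANKRD1 had a log2 fold change of 1.86 in GAS5 (interval 0.78 to 3.77), on 4.0 mean counts in NC and 18.5 in GAS5. It passed the filter on low counts only through its GAS5 value, so its call rests on the group where it was high. Of the 10, ANKRD1 included, 8 were above 0 in GAS5, and the median was 0.42 there and 0.32 in siYAP. By that limit 5.29% of all measured genes were higher in siYAP and 4.64% in GAS5. The epithelial label was borne out by EPCAM, CDH1, KRT8, KRT18, KRT19 and CDX2, 6 of 8 markers at 1 FPKM or more in NC, while VIL1 was at 0 in NC and CDX1 at 0 in every group. The fibroblast markers DCN and LUM and the leukocyte marker PTPRC were at 0 throughout, and the summed fibroblast list, carried by COL1A1 and ACTA2, was at 7.64 FPKM in NC, 11.8 in GAS5 and 13.04 after YAP knockdown. The leukocyte list was carried by CD68, also made by other cells, at 4.385, 5.89 and 4.22 FPKM in NC, GAS5 and siYAP. The summed endothelial list was at most 0.225 FPKM in any group, with VWF at log2 0.68 in siYAP on 31.0 and 47.0 mean counts. The part of these lists in the results below was not tested, and in bulk RNA fewer cells of a type cannot be told apart from less RNA per cell.

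RefSeq promoter windows (GRCh38.p14, 250 bases before to 50 after a start site) were held for 7 of the 9 genes, in 9 windows. No window was held for PLAT or TIMP2, which were the genes at least 1.5-fold higher in siYAP than in NC. The windows held were searched on both strands for the TEAD motif GGAATG, the AP-1 motif TGANTCA and the GC box GGGCGG, none of whose matches overlapped another motif. Over all 35116 windows of this length, 4928 held the TEAD motif, 2707 (7.71%) the AP-1 motif and 15786 (45.0%) the GC box. None of the 9 windows held the TEAD letters, 1 held the AP-1 letters and 7 held a GC box. Windows of PLAU, PLAUR and TIMP1 are shown because these genes lay close together in siYAP, between 1.41-fold and 1.45-fold higher than in NC. Capitals mark every match to these motifs. PLAU had another window, chr10:73910360-73910659, which held none of the motifs and is not shown. The PLAU window shown is chr10:73910882-73911181 on the plus strand with 3 GC boxes, the PLAUR window is chr19:43670120-43670419 on the minus strand with the AP-1 letters from position -186, and the TIMP1 window is chrX:47582186-47582485 on the plus strand with 2 GC boxes read on the opposite strand.
PLAU: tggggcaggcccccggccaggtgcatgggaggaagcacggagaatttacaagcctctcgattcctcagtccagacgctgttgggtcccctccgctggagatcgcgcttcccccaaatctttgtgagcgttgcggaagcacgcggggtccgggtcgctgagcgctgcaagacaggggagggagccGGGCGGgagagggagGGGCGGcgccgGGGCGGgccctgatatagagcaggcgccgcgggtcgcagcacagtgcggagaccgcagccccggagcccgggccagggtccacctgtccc
PLAUR: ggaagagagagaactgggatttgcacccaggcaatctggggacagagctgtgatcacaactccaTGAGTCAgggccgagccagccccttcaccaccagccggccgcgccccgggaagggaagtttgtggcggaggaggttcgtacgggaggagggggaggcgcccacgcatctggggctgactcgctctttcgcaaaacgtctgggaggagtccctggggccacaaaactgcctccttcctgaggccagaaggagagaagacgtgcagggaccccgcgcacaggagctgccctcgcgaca
TIMP1: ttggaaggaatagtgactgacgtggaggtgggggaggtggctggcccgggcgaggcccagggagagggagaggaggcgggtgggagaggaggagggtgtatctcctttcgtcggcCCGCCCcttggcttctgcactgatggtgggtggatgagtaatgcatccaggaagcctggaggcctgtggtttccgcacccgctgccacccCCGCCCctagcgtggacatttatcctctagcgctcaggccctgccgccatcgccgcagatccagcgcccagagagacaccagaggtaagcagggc
These matches are letters in a window, and no factor binding was measured in these libraries.

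On GRCh38 (GENCODE 29, looked up by gene name, since the build behind the tables is not given in the sources used here) the genes lie on 9 different chromosomes. The activator PLAU (ENSG00000122861) lies on chromosome 10 from 73909177 to 73917497 and PLAT (ENSG00000104368) on chromosome 8 from 42175233 to 42207724. PLAUR (ENSG00000011422) lies on chromosome 19 from 43646095 to 43670547, and SERPINE2 (ENSG00000135919) on chromosome 2 from 223975112 to 224039319. The proteases MMP14 (ENSG00000157227) and MMP15 (ENSG00000102996) lie on chromosome 14 from 22836557 to 22849027 and on chromosome 16 from 58025566 to 58046901. TIMP1 (ENSG00000102265) is on chromosome X from 47582313 to 47586789, TIMP2 (ENSG00000035862) on chromosome 17 from 78852977 to 78925387, and TIMP3 (ENSG00000100234) on chromosome 22 from 32801701 to 32863043. TIMP1 overlaps the gene SYN1 and TIMP3 overlaps SYN3 on the opposite strand, and whether counting used the strand is not stated. SYN1 had 28.0 mean counts in NC against 33.5 in siYAP, against 3331 and 4347.5 for TIMP1, and SYN3 had at most 2.0 in any group. CEP295NL, which overlaps TIMP2 on the same strand, had 31.5 mean counts in NC against 9.5 in siYAP. On the opposite strand PLAU also overlaps C10orf55, and TIMP2 overlaps AC022966.1, AC100788.1 and AC100788.2. On the same strand PLAUR overlaps RN7SL368P. None of these symbols was listed with counts, so their part in the sums could not be checked.

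Compared per length, the genes differed far more from each other than between groups. TIMP1 had the highest level in each group, at 177, 178 and 239 FPKM in NC, GAS5 and siYAP. SERPINE2 was at 78.7, 61.7 and 90.2 FPKM and PLAUR at 60.65, 63.98 and 82.74 FPKM in the same order, and these neighbours changed places in GAS5. TIMP2 followed at 52.4, 45.7 and 79.6 FPKM, then PLAU at 39.1, 32.2 and 54.7 FPKM and MMP15 at 26.1, 23.1 and 31.6 FPKM. MMP14 stood lower, at 9.135, 7.54 and 10.3 FPKM, and PLAT at 4.39, 4.49 and 6.87 FPKM. TIMP3 was below 1 FPKM in all 3 groups, at 0.64, 0.455 and 0.585 FPKM. Urokinase was thus the more abundant activator mRNA, with a PLAU to PLAT ratio of 8.91, 7.17 and 7.96 in NC, GAS5 and siYAP. Among the membrane proteases MMP15 exceeded MMP14, with a ratio of 2.86, 3.07 and 3.06. Whether neighbours in this order differ beyond the spread between libraries was not tested, since that spread is not in the tables.

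**Figure D1:**
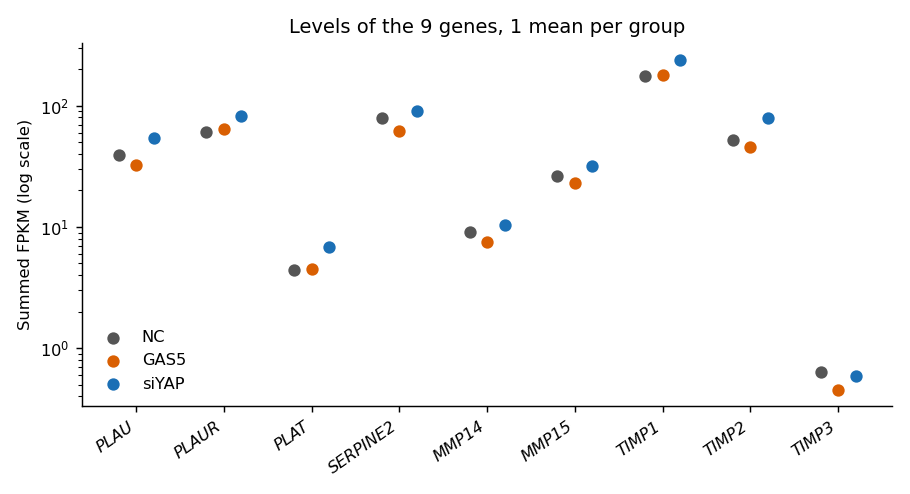
Summed FPKM of each gene on a log axis, with 1 point for the authors' mean of each group (NC grey, GAS5 orange, siYAP blue) and no error bars because the tables give none. TIMP1 is the highest and TIMP3 the lowest in every group, and the siYAP point is above the NC point for all genes but TIMP3.

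The first comparison asked how the genes stood in cells given GAS5. None of the 9 was at least 1.5-fold higher or lower than in NC. In this comparison 4.64% of 13379 measured genes were higher and 3.76% lower by that limit, and 3.05% differed at least 2-fold in either direction. The log2 fold change was below 0 for 6 of the 9 genes, with a median of -0.16, beside -0.01 over all genes. All 16 interferon-stimulated genes examined, 2 of them measured only through their GAS5 value, were at least 1.5-fold higher in this group. Their summed level ran from 168 FPKM in NC to 1099 in GAS5 and 179 in siYAP. Their part in the values below was not tested.

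The activator PLAU had 2529.5 mean counts in NC and 1955.5 in GAS5, or 2109 after scaling. Its log2 fold change was -0.26 (interval -0.35 to -0.18), and 17.1% of measured genes had a lower value. The other activator, PLAT, had 298.5 and 306.5 mean counts and a log2 fold change of 0.15 whose interval, -0.09 to 0.37, spans 0. The receptor PLAUR had 2012.5 and 2040.0 mean counts and a log2 fold change of 0.13 (interval 0.04 to 0.22). With Ensembl transcripts only, PLAUR was at log2 0.01, so the higher sum rested on assembled transcripts. The FPKM ratio of PLAU to PLAUR was 0.65 in NC and 0.50 in GAS5.

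SERPINE2, also known as protease nexin 1, an inhibitor of thrombin, urokinase and plasmin, had 3596 mean counts in NC and 2648.5 in GAS5. Its log2 fold change of -0.33 (interval -0.41 to -0.26) was the lowest among the genes with over 100 mean counts. MMP14 had 953.5 and 748 mean counts and a log2 fold change of -0.24 (interval -0.38 to -0.10). MMP15 had 3081.5 and 2561.5 mean counts and a log2 fold change of -0.16 (interval -0.23 to -0.08). Both membrane proteases were therefore lower in GAS5 by 15.4% and 10.4%, beyond counting error but within the 1.5-fold limit.

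TIMP1 had 3331 mean counts in NC and 3190.5 in GAS5, which scaling turned into a log2 fold change of 0.05 (interval -0.02 to 0.12). TIMP2, the inhibitor that also bridges MMP14 to pro-MMP2, had 5011 and 4153.5 mean counts and a log2 fold change of -0.16 (interval -0.22 to -0.10). TIMP3, a matrix-bound inhibitor of metalloproteinases, had 82 and 55 mean counts. Its log2 fold change of -0.45 had an interval of -0.96 to 0.02, and of -0.82 to -0.12 where the 2 libraries behind each mean were taken as separate counts, so at this depth whether the interval spans 0 depends on how the mean is counted.

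The second comparison asked how the genes stood after YAP knockdown. Of the 9 genes, 8 were higher in siYAP than in NC, and the median log2 fold change was 0.50, beside 0.03 over all measured genes. PLAT and TIMP2 were at least 1.5-fold higher, 2 of 9 genes, and none was at least 1.5-fold lower. By that limit 5.29% of 13308 measured genes were higher and 5.01% lower, and 2.22% differed at least 2-fold, which none of the 9 did. Of the genes past 1.5-fold in siYAP, 51.3% were higher, and with total count scaling 38.1%, when the median over all genes moved to -0.04. The keratins KRT8, KRT18 and KRT19, abundant epithelial mRNAs outside the 9 genes, had log2 fold changes of 0.48, 0.48 and 0.52 in siYAP, and the other measured epithelial markers EPCAM, CDH1 and CDX2 had -0.05, 0.23 and 0.37, with a median of 0.42 over these 6. Their part in the values below was not tested.

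PLAT went from 298.5 mean counts in NC to 475 in siYAP, which scaling made 514. It was 1.72-fold higher, a log2 fold change of 0.78 with an interval of 0.57 to 0.99 that reaches just below the limit, and 309 of the measured genes had a higher value. PLAU had 2529.5 and 3398 mean counts and was 1.45-fold higher, just under the limit, with a log2 fold change of 0.54 (interval 0.47 to 0.61). PLAUR had 2012.5 and 2666 mean counts and was 1.43-fold higher, with a log2 fold change of 0.52 (interval 0.44 to 0.60). Both activators and the receptor were thus higher in siYAP, by 71.8%, 45.4% and 43.4% for PLAT, PLAU and PLAUR, and the ratio of PLAU to PLAUR in FPKM was 0.66, close to that in NC.

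SERPINE2 went from 3596 mean counts in NC to 3968.5 in siYAP, with a log2 fold change of 0.26 (interval 0.19 to 0.32). The FPKM ratio of PLAU to this inhibitor was 0.50, 0.52 and 0.61 in NC, GAS5 and siYAP. MMP14 had 953.5 and 1023.5 mean counts and a log2 fold change of 0.22 (interval 0.09 to 0.35). MMP15 had 3081.5 and 3592 mean counts and a log2 fold change of 0.34 (interval 0.27 to 0.41). The inhibitor and both proteases were higher by 16.2% to 26.2%, less than the activators.

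TIMP2 went from 5011 mean counts in NC to 7375.5 in siYAP (7986 scaled), and was 1.59-fold higher. Its log2 fold change was 0.67 (interval 0.62 to 0.72), and 482 measured genes had a higher value. TIMP1 had 3331 and 4347.5 mean counts and was 1.41-fold higher, a log2 fold change of 0.50 (interval 0.43 to 0.56). TIMP3 had 82 and 72.5 mean counts and a log2 fold change of -0.06 (interval -0.53 to 0.38). TIMP1 and TIMP2 were therefore higher and the interval of TIMP3 spanned 0, and the FPKM ratio of TIMP2 to MMP14 was 5.73, 6.06 and 7.73 in NC, GAS5 and siYAP.

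**Figure D2:**
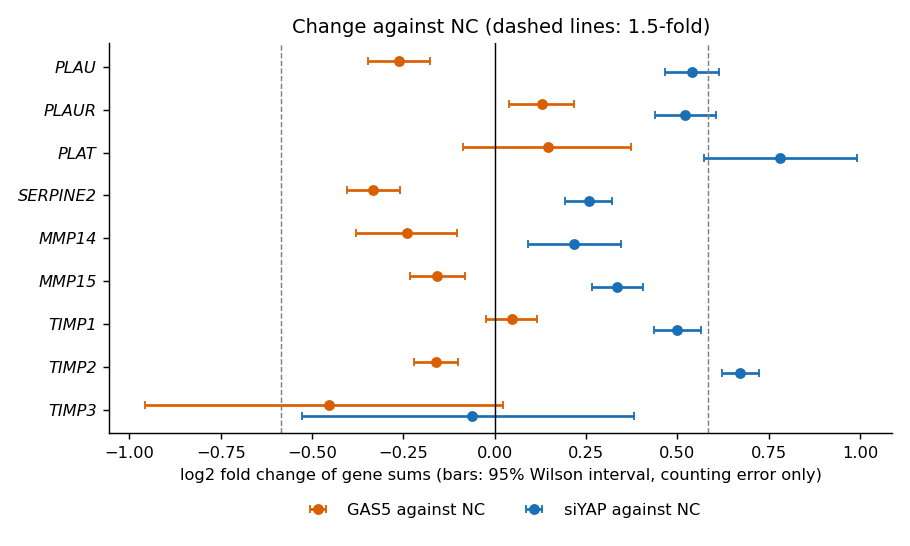
Log2 fold change of the summed counts of each gene in GAS5 (orange) and siYAP (blue) against NC, with 95% Wilson intervals of counting error only and dashed lines at 1.5-fold. PLAT (0.78) and TIMP2 (0.67) in siYAP lie past the dashed line, and every GAS5 point lies inside it.

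**Figure D3:**
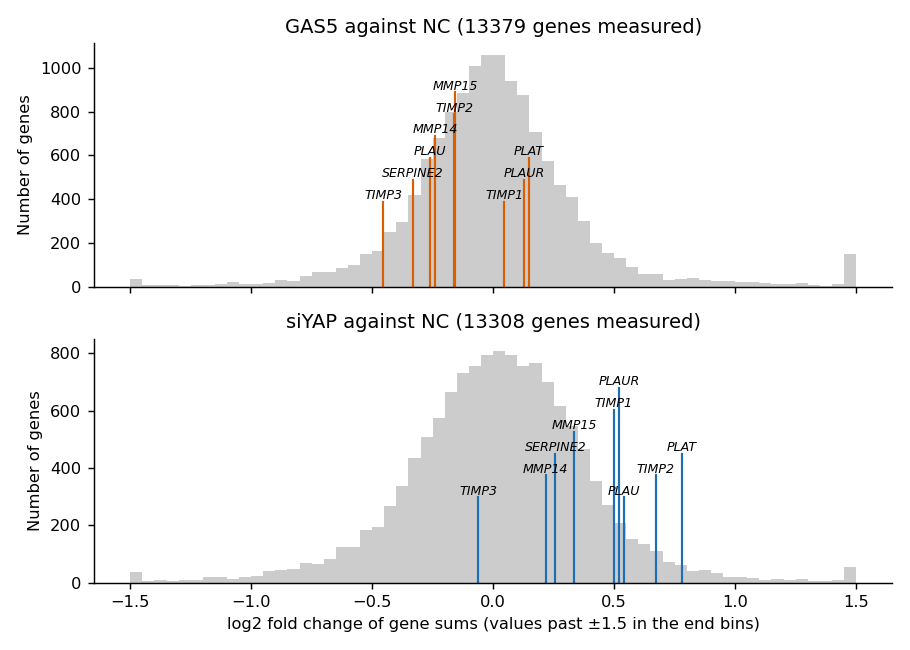
Number of measured genes by log2 fold change in GAS5 (upper, 13379 genes) and siYAP (lower, 13308 genes) against NC, with the 9 genes as vertical lines whose heights only separate the names. In siYAP 5 of the genes, TIMP1, PLAUR, PLAU, TIMP2 and PLAT, lie between 0.50 and 0.78, above 92.2% or more of all genes.

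Since both treatments were set against the same NC values, the treatments were also set against each other directly. All 9 genes were higher in siYAP than in GAS5, with a median log2 fold change of 0.51, beside 0.03 over all measured genes. PLAU was 1.76-fold higher (log2 0.81, interval 0.73 to 0.90), TIMP2 1.80-fold (log2 0.85, interval 0.79 to 0.90), PLAT 1.57-fold (log2 0.65, interval 0.44 to 0.85) and SERPINE2 1.52-fold (log2 0.60, interval 0.53 to 0.67). These 4 of 9 genes were at least 1.5-fold higher and none was lower by that limit, where 8.96% of 13386 measured genes were higher and 7.81% lower. SERPINE2 was below the limit with total count scaling (log2 0.54), with TMM on gene sums (0.57) and with FPKM (0.55), which left 3 of 9. With the most abundant transcript alone PLAT was at 0.34, and MMP14 was past the limit at 0.65. The other genes ran from log2 0.40 for TIMP3 (interval -0.12 to 0.88, or 0.06 to 0.77 with 2 separate libraries) to 0.51 for MMP15 (interval 0.43 to 0.58).

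The 9 genes were listed as 51 transcripts, 43 with an Ensembl identifier and 8 assembled from the reads, and 9 of the 51 were at 0 in every group. Transcript counts are estimates that divide reads shared between transcripts, so they are less certain than gene sums. MMP15 and TIMP3 each had 1 transcript above 0, and PLAU-201 (ENST00000372764) held 91.8% of PLAU counts in NC (interval 90.6 to 92.8), 93.0% in GAS5 and 92.6% in siYAP. MMP14-201 held 96.4%, 86.9% and 98.8% of MMP14 counts. The other 5 genes were divided over several transcripts.

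In TIMP2 the transcripts moved apart in GAS5. TIMP2-203 (ENST00000585421), whose annotated coding sequence is 429 bases long and which begins inside the gene, had 3100.2, 2094 and 4475.4 mean counts in NC, GAS5 and siYAP. TIMP2-201 (ENST00000262768), with a coding sequence of 660 bases and the full span of the gene, had 1845.4, 2059.5 and 2807.6 mean counts. The log2 fold changes in GAS5 were -0.46 (interval -0.54 to -0.38) for the shorter and 0.27 (interval 0.18 to 0.36) for the full-length transcript. In siYAP both were higher, by 0.64 (interval 0.58 to 0.71) and 0.72 (interval 0.64 to 0.81). TIMP2-203 held 61.9% of TIMP2 counts in NC (interval 60.5 to 63.2), 50.4% in GAS5 (48.9 to 51.9) and 60.7% in siYAP (59.5 to 61.8). The minor transcript ENST00000586057 had 65.4 mean counts in NC, 92.5 in siYAP and 0 in GAS5, hence at 0 in both libraries behind that mean.

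SERPINE2 counts were spread over 4 main transcripts that did not change alike. SERPINE2-206 (ENST00000447280) had 1371.3, 816 and 1094.5 mean counts in NC, GAS5 and siYAP, with log2 fold changes of -0.64 (interval -0.76 to -0.51) and -0.21 (interval -0.32 to -0.09). SERPINE2-202 (ENST00000409304) had 1068.3, 938.9 and 1559.8 mean counts, with log2 fold changes of -0.08 (interval -0.20 to 0.05) and 0.66 (interval 0.55 to 0.77). The first was therefore lower in both treatments and its share of SERPINE2 counts was 38.1%, 30.8% and 27.6% in NC, GAS5 and siYAP. The share of SERPINE2-202 was 29.7%, 35.4% and 39.3% in the same order. The other main transcripts, ENST00000432738 and ENST00000258405, had log2 fold changes of -0.18 and -0.34 in GAS5 and of 0.48 and 0.06 in siYAP.

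PLAT counts lay mainly in the assembled transcript TCONS_00137020 and in PLAT-201 (ENST00000220809), whose coding sequence is 1686 bases long. PLAT-201 had 103, 108 and 208 mean counts in NC, GAS5 and siYAP, a log2 fold change of 1.11 in siYAP (interval 0.79 to 1.47). The assembled transcript had 168, 182 and 228 mean counts and a log2 fold change of 0.55 in siYAP (interval 0.27 to 0.84). In GAS5 the intervals of both spanned 0. Both were higher in siYAP, and the share of PLAT-201 was 34.5% in NC (interval 29.4 to 40.1) and 43.7% in siYAP (39.4 to 48.3).

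Between 55.3% and 58.6% of PLAUR counts in each group lay in another assembled transcript, TCONS_00075483, with 1112.2, 1196.1 and 1523.9 mean counts in NC, GAS5 and siYAP. Its log2 fold changes were 0.21 (interval 0.10 to 0.33) and 0.57 (interval 0.46 to 0.68). PLAUR-202 (ENST00000339082) had 317, 321 and 423 mean counts and log2 fold changes of 0.13 and 0.53. PLAUR-213 (ENST00000599892) and PLAUR-203 (ENST00000340093) had log2 fold changes of -0.27 and 0.12 in GAS5 and of 0.33 and 0.39 in siYAP. All 4 were higher in siYAP beyond counting error.

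MMP14-201 (ENST00000311852) had 919, 650 and 1011 mean counts in NC, GAS5 and siYAP, with a log2 fold change of -0.39 in GAS5 (interval -0.54 to -0.25), lower than that of the gene sum. The difference came from the assembled transcripts. TCONS_00038452 had 34.6, 67.0 and 10.8 mean counts, and TCONS_00038454 had 31.1 in GAS5 and was listed at 0 in NC and siYAP. TIMP1-202 (ENST00000377017), with a coding sequence of 429 bases, had 2432.4, 2209.9 and 3191.5 mean counts and a log2 fold change of -0.03 in GAS5 and 0.51 in siYAP. TIMP1-201 (ENST00000218388), with 621 coding bases, had 873, 946 and 1117.7 mean counts and log2 fold changes of 0.22 and 0.47.

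**Figure D4:**
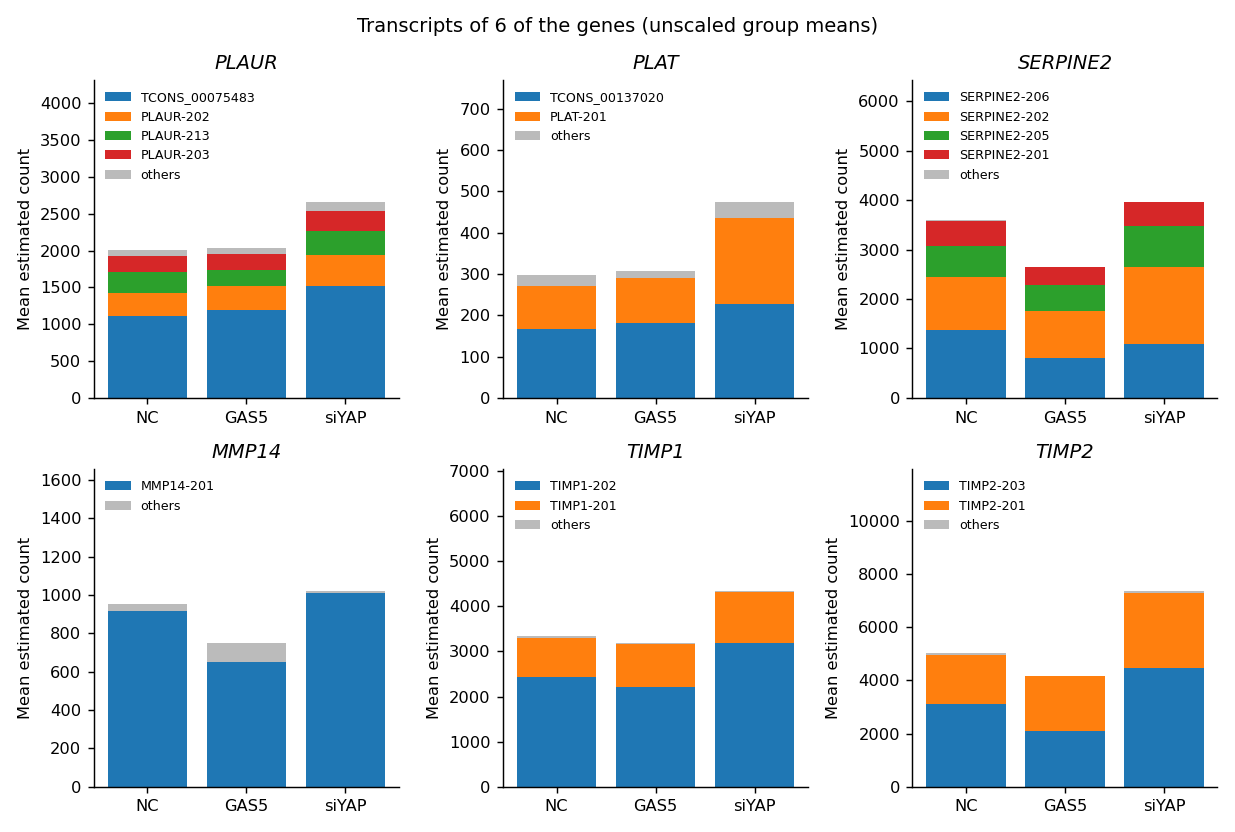
Stacked mean estimated counts, unscaled, of the transcripts that hold at least 10% of a gene's counts in any group, with all others in grey, for 6 of the genes. The TIMP2-203 segment shrinks from 3100.2 counts in NC to 2094 in GAS5 while TIMP2-201 goes from 1845.4 to 2059.5, and SERPINE2-206 is smaller in both treatments than in NC.

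Further genes of the plasminogen system were measured for comparison. For this list and those that follow, the shares over all measured genes were 5.29% higher and 5.01% lower in siYAP. In GAS5 they were 4.64% higher and 3.76% lower. In siYAP 2 of 10 measured genes were at least 1.5-fold higher and none lower, with a median log2 fold change of 0.29. A2M, with 9.5 mean counts in NC and 12 in siYAP, was measured only in siYAP, through its value there. Its log2 fold change was 0.38 (interval -0.80 to 1.56), and it is part of that median. SERPINF2, the plasmin inhibitor antiplasmin, had 97, 62.5 and 160.5 mean counts in NC, GAS5 and siYAP, with log2 fold changes of -0.51 in GAS5 and 0.83 in siYAP. LRP1, an endocytic receptor that clears activator and inhibitor complexes, had log2 fold changes of 0.48 and 0.65. MRC2, a collagen receptor that associates with PLAUR, had log2 fold changes of -0.62 in GAS5 and 0.31 in siYAP. In GAS5 MRC2 was thus the gene past the limit downward, of 9 measured, and none was past it upward, with a median of 0.10. The plasminogen-binding proteins ENO1 and ANXA2, the most abundant of the list at 1680 and 1072 FPKM in NC, had log2 fold changes of 0.29 and 0.11 in GAS5 and of 0.14 and -0.08 in siYAP. PLG, the substrate, had no counts in NC and GAS5 and 0.5 in siYAP.

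Of 21 other MMP genes only 6 were measured in each comparison, and 4 were at 0 in every group. The 6 were not the same genes in both. MMP9, with 10.0 mean counts in NC and 10.5 in siYAP, was measured only in siYAP, and MMP23B only in GAS5. Among the unmeasured was MMP2, the substrate of MMP14, with 2.0 mean counts in GAS5 and 0 in the other groups. In siYAP 3 of the 6 were at least 1.5-fold higher and none lower, with a median of log2 0.57. In GAS5 1 was higher, MMP23B, and 1 lower, with a median of -0.15. MMP11, or stromelysin 3, had 245, 216 and 410.5 mean counts and log2 fold changes of -0.07 and 0.85 (interval in siYAP 0.62 to 1.08). MMP28 had 13, 18 and 40.0 mean counts and a log2 fold change of 1.59 in siYAP (interval 0.85 to 2.62), and MMP19 had 13 and 22 in NC and siYAP and a log2 fold change of 0.78 (interval -0.10 to 1.84). MMP17, another membrane-anchored protease, had log2 fold changes of -0.37 and 0.37. MMP25 had log2 fold changes of -0.67, past the limit, and -0.58, just short of it, on 67.5, 38.5 and 41 mean counts. MMP23B passed the filter on low counts only through its GAS5 value, 12 mean counts against 7.5 in NC. Its log2 fold change was 0.65 (interval -0.56 to 1.94), so its call and its part in the median rest on the group where it was high. Of the other regulators, BSG, a membrane protein that induces MMP production, was at 509 FPKM in NC with log2 fold changes of -0.03 and 0.32, and RECK, a membrane-bound MMP inhibitor, had 0.11 and -0.50.

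Among the ADAM sheddases 2 of 6 measured genes were at least 1.5-fold higher in siYAP and 1 in GAS5, none was lower by that limit, and the medians were 0.12 and -0.28. ADAM19 had 2962.5, 2203.5 and 5004 mean counts and log2 fold changes of -0.32 and 0.87 (interval in siYAP 0.81 to 0.94). ADAM8 had 14, 36 and 26 mean counts and log2 fold changes of 1.35 (interval 0.59 to 2.35) and 0.91 (interval 0.09 to 1.93). The abundant ADAM15 and ADAM9 had -0.16 and -0.24 in GAS5 and 0.22 and -0.20 in siYAP. No ADAMTS gene of the 6 measured was past the limit in either comparison, and ADAMTS7 and ADAMTS2, the most abundant, had log2 fold changes of 0.25 and -0.19 in siYAP.

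Over 6 measured genes of membrane serine proteases and their inhibitors, the median in siYAP was log2 0.55, with all 6 above 0 and 2 past 1.5-fold upward. The protease PRSS22 had 137.5, 133.5 and 264 mean counts and a log2 fold change of 1.04 in siYAP (interval 0.75 to 1.35). The matriptase inhibitor SPINT1 had 4563.5, 4127 and 6341.5 mean counts and a log2 fold change of 0.59 (interval 0.53 to 0.64), and SPINT2 of 0.35. In GAS5 none of the 6 was past the limit, and the median was -0.02. The lysosomal cathepsins had medians of -0.15 in GAS5 and 0.02 in siYAP over 9 measured genes. CTSV had 430.5, 310.0 and 225 mean counts and a log2 fold change of -0.82 in siYAP (interval -1.06 to -0.59), and CTSK had 38.5, 63.5 and 32.5 and 0.80 in GAS5 (interval 0.29 to 1.44). The abundant CTSB and CTSD had -0.22 and -0.15 in GAS5 and 0.12 and 0.25 in siYAP.

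**Figure D5:**
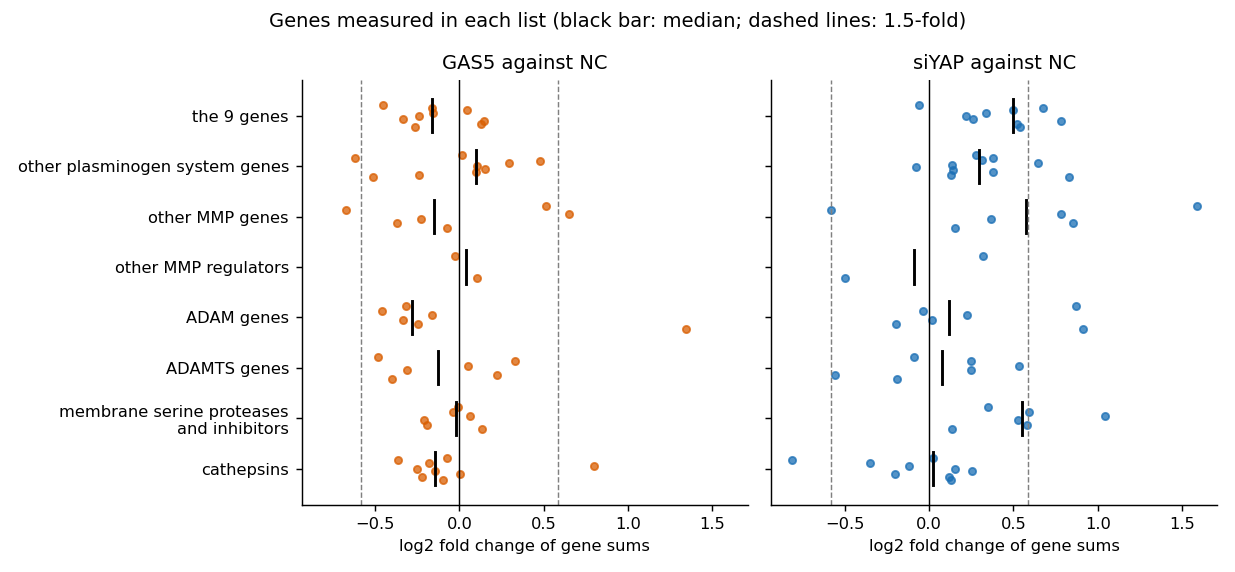
Log2 fold change of the measured genes of each list against NC in GAS5 (left) and siYAP (right), with 1 point per gene, a black bar at the list's median and dashed lines at 1.5-fold. The measured genes of a list can differ between the panels. In siYAP the median is 0.50 for the 9 genes, 0.57 for other MMP genes, 0.55 for membrane serine proteases and their inhibitors, 0.29 for other plasminogen system genes and 0.02 for cathepsins.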

How the data were processed

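Strand-specific libraries were sequenced on an Illumina platform, and the submitters' processing notes name TopHat2 2.1.1. Counting tool, genome build and annotation are not given in the sources used here. The authors deposited 1 table per treatment with expected counts per mRNA transcript, not normalized, and FPKM, scaled by length and library size, with 0 written as 0.001. The deposited values are means over the 2 libraries of a group: 100.0% of counts end in the digit 0 or 5 that a mean of 2 rounded values leaves. Columns with the authors' own fold changes, p-values and FDR were not used.

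Tables were joined by identifier, symbols were read from the siYAP table, and counts and FPKM were summed by symbol (339 of 92866 transcripts without a symbol, holding 0.2235% of NC counts, were left out of the sums but not of the scaling). edgeR 4.0.16 gave TMM factors on the transcripts kept by filterByExpr (minimum count 10, 41340 and 40876 transcripts), and the same filter on gene sums set which genes count as measured. All 9 genes passed it. Size factors from DESeq2 1.42.0 served as one alternative. Neither tool's test could be run, since the edgeR test written into the design needs libraries. Python 3.11.15, scipy 1.17.1 and R 4.3.3 were used. Scaling, fold change and counting interval were tested on simulated gene counts with counting error alone. Transcript shares, lists, the promoter search and spread between cultures were not part of that simulation. Named genes are the 9 genes, their transcripts with at least 10% of a gene's count, YAP1, CTGF and CYR61. Of each list of proteases, inhibitors and regulators, the genes past 1.5-fold in a comparison with NC and the 2 most abundant are also named. The plan held the same rule for interferon-stimulated genes, none of which is named, and for YAP targets, of which only some are. AXL, FJX1, ANKRD1, keratins, markers, PLG, A2M, MMP2, MMP9, overlapping neighbours and minor transcripts were named after their values were seen. The direct comparison of the treatments was also added after the data were seen. The genes and lists were chosen with earlier results of these data known. GAS5 RNA is not analysed here, since the tables used cover mRNA. A gene of the plasminogen list is not reported here and was left out of that list's counts.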

Additional observations from a re-analysis of the deposited data

How the results depend on the processing

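No paired analysis was possible because each group is deposited as 1 mean. Leaving out each replicate, the replicate block and the edgeR and DESeq2 tests were therefore not run. Of 243 values of the 9 genes under alternatives, 221 stayed within the counting interval of the reported value, and 26 of 27 values kept their sign throughout. The exception was TIMP1 in GAS5, 0.05 as a sum and -0.03 for its most abundant transcript alone. PLAT and TIMP2 stayed past 1.5-fold in siYAP under each scaling (PLAT 0.72 and TIMP2 0.61 with total counts), with a prior count of 0.5, with FPKM (0.645 and 0.60) and with Ensembl transcripts only (PLAT 1.02). With the most abundant transcript alone, chosen by its counts over all groups together, PLAT was at 0.55 and SERPINE2 at 0.66. For SERPINE2 this choice took SERPINE2-202, while SERPINE2-206, the most abundant in NC, was at -0.21 in siYAP. At a limit of 2-fold 0 of the genes passed in siYAP against NC or against GAS5. The alternatives for siYAP against GAS5 were added after the data were seen: 3 to 5 of the 9 genes were past 1.5-fold, and the median, 0.51, was 0.60 with Ensembl transcripts only. The median of the 9 genes in siYAP ran from 0.43 to 0.55, and was 0.47 with TMM on gene sums. Over all genes, 1124 were past 1.5-fold in GAS5 and 1371 in siYAP, against 408 and 296 at 2-fold and 2325 and 2375 without the filter on low counts. Taking the 2 libraries of a mean as separate counts narrowed the intervals, for PLAT in siYAP to 0.64 to 0.93 and for TIMP3 in GAS5 to -0.82 to -0.12. Of the values of the 9 genes outside their interval, those of PLAT, PLAUR and MMP14, and those of SERPINE2, TIMP1 and TIMP2 with the most abundant transcript alone (TIMP2 in GAS5 -0.46), follow from counting fewer transcripts. Those under total count scaling follow from the changed library factors, the only input that this setting alters. For those under FPKM the cause was not tested. Depth limits TIMP3, with 55 to 82 mean counts, and the minor MMP genes.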
